A study of Danio rerio with 2 samples.

Results

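Immediate early, heat shock and chaperone genes were examined in pigment cells isolated from adult zebrafish fins. The group was chosen by gene symbol: AP-1, Egr, Klf, Ier, Btg, Gadd45 and Dusp genes, heat shock genes, J-domain (dnaj) genes and the cct subunits 2 to 8. It held 119 of the 15502 transcript probe sets on the array, each annotated to 1 such gene, and 101 of the 8793 named genes. The rule itself uses no expression value, but it was set with earlier results of these data known. A further 2 probe sets annotated to several genes, at least 1 of them with such a symbol, were left out.

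The series holds 2 Affymetrix arrays of biotin-labelled total RNA, titled melanophores (1 array) and xanthophores (1 array). Melanophores are the black cells of the stripes and xanthophores the yellow cells between them. Both came from wild-type fish over 2 months old, bought from a pet shop. Caudal and anal fins of 1000 fish were left overnight in trypsin (2.5 mg/ml) at 4 °C, washed at 28 °C and digested with collagenase, after which a centrifuge or a cell sorter separated the cell types. The source name and cell type fields of each sample name the opposite cell type from its title. Arrays are therefore named by title alone. M after a signal stands for the array titled melanophores and X for the array titled xanthophores, and every ratio is M over X. Pigment markers went against the titles: the xanthophore markers bco1, scarb1, gch2 and csf1ra all passed 2-fold towards M, the melanin enzyme gene dct stood at 50.1 in M and 590.1 in X, and tyr was near the median signal in both (48.4 in M and 39.2 in X).

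Immediate early genes encode short-lived regulators that cells transcribe within minutes of a stimulus, without new protein synthesis. AP-1 and Egr factors are activated through MAP kinases, and Dusp phosphatases switch those kinases off again. Heat shock genes are driven by Hsf1 when unfolded protein accumulates. Chaperones of the Hsp70 and Hsp90 families fold clients with ATP, J-domain proteins bring clients to Hsp70, and the Cct subunits form a ring that folds actin and tubulin. Enzymatic digestion of tissue is a well-known inducer of immediate early and heat shock genes, so members usually counted among them, named in the plot of their signals, form a class apart from the constitutive chaperones. Both preparations had been digested and no undissociated fin was profiled, so the extent of any induction cannot be read from these arrays.

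The brightest signals were 19555 (melanophore title) and 23427 (xanthophore title). With 1 array per title no difference has a replicate check and no test between them was possible. The error that can be given is technical: the log2 ratios of probe sets for 1 gene scattered with an SD of 0.42, a factor of 1.33. It came from 466 genes with over 1 probe set that reached the array's median signal on both arrays. Probe sets under that median on either array were left out of it. A signal under its array's median (47.2 in M and 43.5 in X) was raised to that median before a ratio was taken. Genes whose brighter signal was at least that median count as measured. The melanophore-titled array was brighter as a whole. The median log2 ratio of the 5504 measured genes was 0.36, and that of the 18 hybridisation spike-ins 0.38. Values scaled to the spike-ins are given beside those as deposited.

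Most of these genes differed little between the arrays. Of the 101 genes 88 were measured, and 77 of the 88 (87.5%) lay within 2-fold, against 80.4% of all measured genes. Towards the melanophore title 8 passed 2-fold (9.09%, where 15.5% of all measured genes did), and towards the xanthophore title 3 did (3.41%, against 4.09% of all measured genes). Towards the xanthophore title the share was near the background. After scaling to the spike-ins the counts were 2 genes (2.27%, background 6.56%) and 7 genes (7.95%, background 8.21%), and once a smooth trend of the ratio with brightness was removed they were 2 genes (2.27%, background 6.03%) and 9 genes (10.2%, background 7.83%). The share towards the melanophore title was thus below the background in all 3 settings, and that towards the xanthophore title lay on either side of it. The median log2 ratio of the members was 0.08, lower than that of all measured genes, and 58 of 88 members lay under the all-gene median.

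By class median, the dissociation-induced genes lay lower than the constitutive chaperones, whose families differed. Of 38 such genes, 36 were measured, with a median log2 ratio of -0.27 (-0.65 scaled to the spike-ins). The constitutive chaperones, 37 measured of 43, had a median of 0.09 (-0.29 scaled). Within that class the 7 Cct subunits were about as low as the dissociation-induced genes, with a median of -0.29 as deposited. The J-domain genes stood higher, at 0.46 over 22 measured, a group that also holds dnaja1, dnajb1a and dnajb1b of the dissociation-induced class. Of the 36 dissociation-induced genes 24 (66.7%) were dimmer on the melanophore-titled array, against 28.3% of all measured genes. Set against the all-gene median, 12 of the 36 (33.3%) lay below it by over 2 technical SD (0.83) and none above. Of all measured genes 11.1% lay below and 10.3% above. The class was chosen with earlier results of these data known, so these shares describe it and are no test. The 12 were hspb1, gadd45bb, egr1, btg1, hspa1b, klf9, egr2a, junbb, junba, fosab, egr4 and klf2b.

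**Figure D1:**
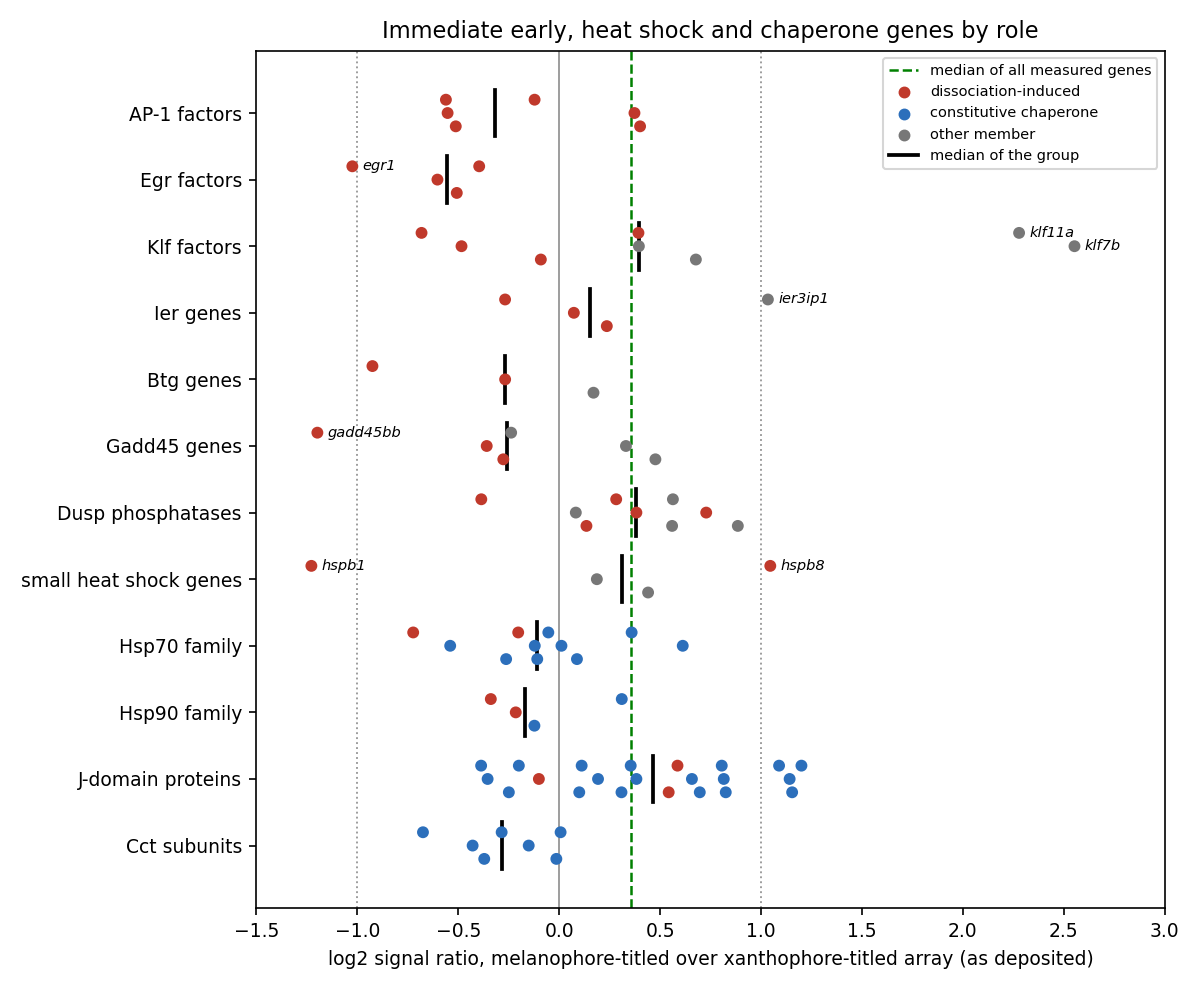
Each point is 1 measured gene, placed by its log2 signal ratio (melanophore-titled over xanthophore-titled array, 1 array each, as deposited) and grouped by role, with the group median as a black bar, the median of all measured genes (0.36) as a dashed line and 2-fold as dotted lines. All 4 Egr genes and all 7 Cct subunits lie left of the dashed line, and klf7b and klf11a lie far to the right.

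Brightness moved with this result. The geometric mean of the 2 signals reached 2000 for 20 of the 36 measured dissociation-induced genes (55.6%) and for 7.81% of all measured genes. Genes that bright had a lower median ratio in general (0.11 over 430 genes). The median was 0.51 at 200 to 2000 and 0.26 under 200, so it did not fall steadily with brightness. Against genes of the same signal range the median of the dissociation-induced genes was lower by 0.45 on the log2 scale, with 25 of 36 below. For the constitutive chaperones that difference was -0.16, with 24 of 37 below, so most genes of both classes lay below their range. On this measure junbb (-0.67), junba (-0.66), fosab (-0.62) and egr4 (-0.77), named among the 12 above, lay within 2 technical SD (0.83). Connective tissue and bone markers also ran towards the xanthophore title: 11 of 11 measured were 2-fold or more brighter there (100%, background 4.09%). Their median log2 ratio was -2.03 (summed signal 6270 in M and 26048 in X). Endothelial markers ran the other way, with 3 of 4 measured at 2-fold on the melanophore-titled array (75%, background 15.5%). The remaining marker, tie1, was under the floor in X (60.2 in M and 27.6 in X), and tek was not measured. Of the blood markers the alpha globin hbaa1 gave 24.9 in M and 956.5 in X. Keratinocyte markers had a median of 0.34 (summed signal 23444 in M and 19034 in X). As deposited, 3 of the 9 measured were at 2-fold on the melanophore-titled array (33.3%, background 15.5%) and none on the other. Leukocyte markers went both ways (5 of 8 measured, 658.5 in M and 454 in X summed), with ptprc, lcp1 and mpx not measured. The markers were picked after their values were seen, so their shares only describe them. The part of these cells in the result was not tested. In such bulk RNA fewer cells of a type and less RNA per cell cannot be told apart.

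Among the AP-1 factors, fosab and the jun genes were dimmer on the melanophore-titled array, and atf3 and fosl2 were not. The 2 copies of JunB, a subunit that often restrains AP-1, ran together. Signals of junba were 3824 in M and 5611 in X, and those of junbb 3776 in M and 5572 in X. Their log2 ratios of -0.55 and -0.56 differed by 0.0084. The gene fosab, one of the fish copies of c-Fos, gave 4617 in M and 6586 in X (log2 ratio -0.51), and jun gave 5118 in M and 5569 in X (-0.12). The stress factor atf3 stood at 6580.3 in M against 5082 in X (0.37) and fosl2, a later Fos relative, at 3843 in M against 2911 in X (0.40). Both of these lay at the level of the spike-ins, at -0.0090 and 0.02 after scaling to them. The AP-1 median over 6 measured genes was -0.32, and fosl1b was not measured.

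Probe sets along these genes mostly ran one way. All 4 probe sets of fosab were dimmer on the melanophore-titled array, with log2 ratios from -1.29 to -0.24. The widest gap came from a probe set at 790.4 in M and 1929 in X. The 2 probe sets of jun gave -0.45 and -0.12, and the 3 of fosl2 gave 0.08 to 0.44. Of the 12 members with over 1 measured probe set, 9 had the same sign throughout and 10 agreed within 1 on the log2 scale. The 2 wider ones were fosab and dnajb6a.

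**Figure D2:**
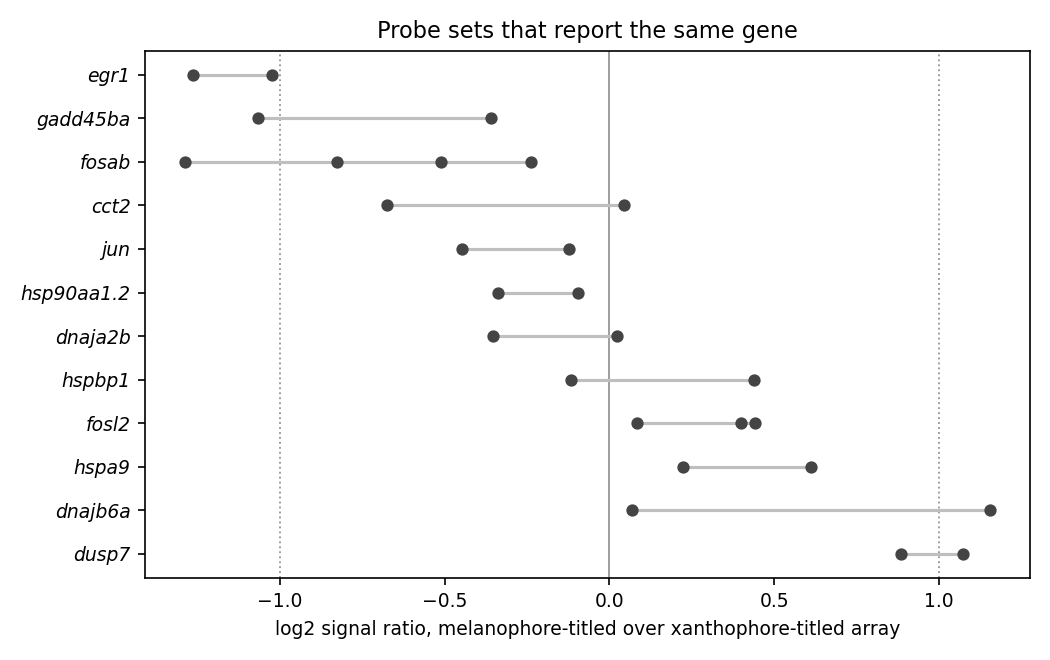
Points are the measured probe sets of the 12 genes that have over 1 of them, placed by log2 signal ratio (melanophore-titled over xanthophore-titled array), with a line joining probe sets of 1 gene and 2-fold dotted. Both egr1 and all fosab probe sets lie left of 0, while those of dnajb6a spread from 0.07 to 1.15.

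All 4 Egr genes, zinc finger factors of the first transcriptional wave, were dimmer on the melanophore-titled array. The signal of egr1 was 616 in M and 1253.5 in X, 2.03-fold, and 2.65-fold scaled to the spike-ins. Its second probe set (36.8 in M and 113 in X) gave a log2 ratio of -1.26 with the dim signal raised to the floor, beside -1.02. The relatives were dim: egr2a at 130 in M and 197 in X (-0.60), egr2b at 72.4 in M and 95.3 in X (-0.40), and egr4 at 46.8 in M, which is under the floor, and 67.1 in X (-0.51). The group median of -0.56 was the lowest of the 12 role groups as deposited. That rank depended on the floor: with it at the 65th percentile the Egr median was -0.15, above the AP-1 median of -0.32.

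The Klf factors split, and held the largest ratios of all members. The signal of klf7b was 306 in M and 52.2 in X, 5.87-fold (4.50-fold scaled). The signal of klf11a was 1603 in M and 330.5 in X, 4.85-fold (3.72-fold scaled). These are the only 2 members at 4-fold, where 2.22% of all measured genes were that much brighter on the same array, and both stayed over 2-fold under all 11 alternatives run. In mammals KLF7 is known from neurons and fat cells, and KLF11 as a TGF-beta-inducible repressor. Neither was placed in the dissociation-induced class, and each rests on 1 probe set. The copy klf11b gave 190.1 in M and 119 in X (log2 ratio 0.68), 1.60 below klf11a on the log2 scale.

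The dissociation-induced class held klf2a, klf2b, klf6a, klf9 and the unmeasured klf4. The measured ones all lay within 2-fold, as did 80.4% of all measured genes. The signals of klf9, a glucocorticoid-responsive repressor, were 621 in M and 996 in X (log2 ratio -0.68). The shear-stress factor klf2b gave 231.5 in M and 324 in X (-0.48) and its copy klf2a 388 in M and 414 in X (-0.09). The injury-responsive klf6a gave 3642 in M and 2774 in X (0.39), as did klf3, outside that class, at 277 in M and 210.4 in X (0.39). The regulators klf1, klf4, klf10 and klf17 were not measured on either array.

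The growth and stress brakes leaned to the xanthophore-titled array. Gadd45 proteins bind cell cycle and stress kinase regulators. The signal of gadd45bb was 1107.5 in M and 2541 in X, 2.29-fold (2.99-fold scaled). Its copy gadd45ba gave 5609 in M and 7194 in X (log2 ratio -0.36), with a second probe set at -1.07, and gadd45ga gave 2469 in M and 2991 in X (-0.28). The other pair split, gadd45aa at 597 in M and 429 in X (0.48) and gadd45ab at 169 in M and 199 in X (-0.24). Of the antiproliferative Btg genes, btg1 gave 2972.5 in M and 5645 in X (1.90-fold, and 2.47-fold scaled), btg2 3077 in M and 3705 in X (-0.27) and btg3 814 in M and 724 in X (0.17), while btg4 was not measured. The short-lived Ier proteins hardly differed: ier2a gave 4794 in M and 4071 in X (0.24), ier5 4653 in M and 4425 in X (0.07), and ier5l 1296 in M and 1561 in X (-0.27).

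The Dusp phosphatases had a median log2 ratio of 0.38, close to that of all measured genes. None of the 9 measured reached 2-fold, where 80.4% of all measured genes lay within it. Those that act in the nucleus on stress kinases and ERK went both ways: dusp1 gave 6677 in M and 6081 in X (log2 ratio 0.13), dusp2 gave 3518 in M and 4597 in X (-0.39), and dusp5 gave 1526 in M and 921 in X (0.73). The ERK phosphatase dusp6, a standard readout of FGF signalling, gave 2568 in M and 2112 in X (0.28). Its relative dusp7 gave 1367 in M and 740.5 in X (0.88), and both of its probe sets lay near 2-fold. The remaining dusp4, dusp16, dusp22a and dusp11 were dim, with log2 ratios from 0.08 to 0.56, and dusp23b was not measured.

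**Figure D3:**
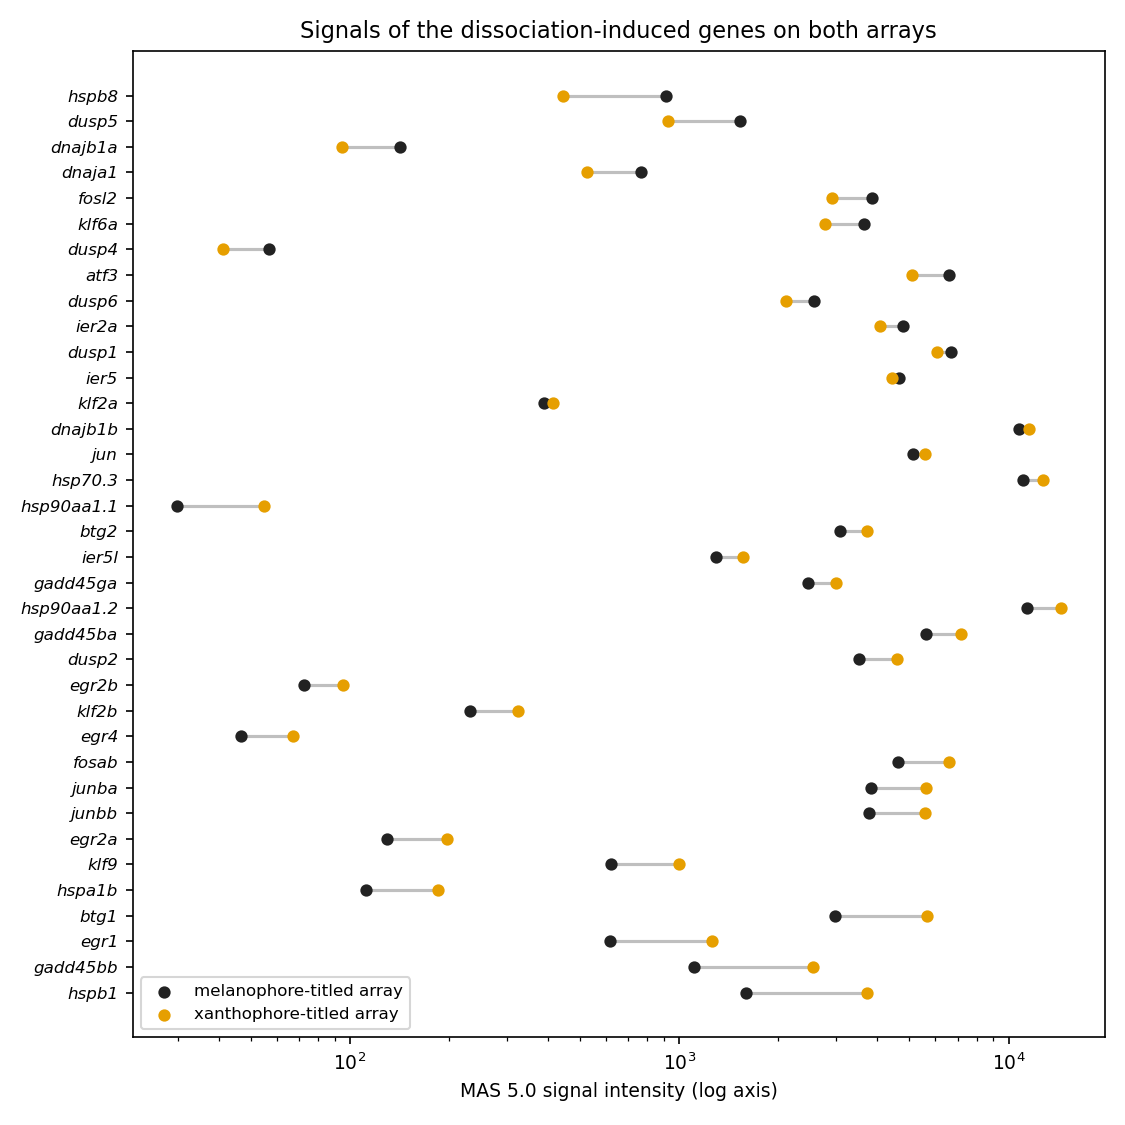
Each row is 1 of the 36 measured dissociation-induced genes, with its MAS 5.0 signal (log axis) on the melanophore-titled array (black) and on the xanthophore-titled array (orange), ordered by ratio from hspb8 at the top to hspb1 at the bottom. The orange point lies to the right in 24 of the 36 rows; signals of different rows come from different probes and are not compared.

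Small heat shock proteins, which hold unfolded clients without ATP, gave opposite ratios. The signal of hspb1 (the fish Hsp27) was 1591 in M and 3726.5 in X, 2.34-fold (3.05-fold scaled), the lowest log2 ratio of all members at -1.23. The signal of hspb8, which works in chaperone-assisted autophagy in mammals, was 914 in M and 443 in X, 2.06-fold the other way, and 1.58-fold once scaled. The muscle-type hspb6 was near the floor on both arrays (49.5 in M and 42.6 in X). The classical inducible genes differed less. A probe set for hsp70.3, open to cross-hybridisation with its near-identical neighbours, gave 11073 in M and 12748 in X (log2 ratio -0.20), hspa1b gave 112 in M and 185 in X (-0.72), and the Hsp40 gene dnajb1b gave 10758 in M and 11536 in X (-0.10). Of the inducible Hsp90 pair, hsp90aa1.2 gave 11377.5 in M and 14390.2 in X (-0.34), while hsp90aa1.1, at 29.8 in M and 54.8 in X, was under the floor on the melanophore-titled array. So egr1, gadd45bb and hspb1 were the dissociation-induced genes at 2-fold towards the xanthophore title as deposited (8.33% of 36, background 4.09%). After scaling to the spike-ins btg1, hspa1b and klf9 joined them (16.7%, background 8.21%).

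The main Hsp70 and Hsp90 chaperones of cytosol and endoplasmic reticulum hardly differed between the arrays as deposited. The cytosolic hspa8 gave 7472 in M and 7031 in X (log2 ratio 0.09), hsp90ab1 gave 7338 in M and 7990.3 in X (-0.12), and the endoplasmic reticulum Hsp70 hspa5 (BiP) gave 6259.5 in M and 6808 in X (-0.12). The endoplasmic reticulum Hsp90 hsp90b1 gave 1377 in M and 1111 in X (0.31). Scaled to the spike-ins, hspa5 and hsp90ab1 were each 1.42-fold brighter in X, hspa8 1.23-fold and hsp90b1 1.05-fold. The mitochondrial Hsp70 hspa9 had the highest ratio of the family, 4924 in M against 3222 in X (0.61), and its second probe set gave 0.22. The exchange factor hspa4a gave 4052.5 in M and 3160.2 in X (0.36) and its copy hspa4b 236.5 in M and 284 in X (-0.26). A second cytosolic gene, hspa8b, gave 281 in M and 409 in X (-0.54). Of the 11 Hsp70 family genes all lay within 2-fold, as did 80.4% of all measured genes. Their median was -0.11, and 9 were below the all-gene median. The dimmer relatives hspa14 and hspa4l had log2 ratios of 0.01 and -0.11, with hspa4l under the floor on the melanophore-titled array. The signals of hspa12a were 15.2 in M, far under the floor, and 49.0 in X, so its log2 ratio was -0.05 with the floor and -1.69, the lowest of all members, without it.

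The Cct subunits, parts of 1 ring, lay close together. All 7 measured subunits lay below the all-gene median, from -0.68 to 0.0068, with a median of -0.29. The lowest was cct2, at 1438 in M and 2297 in X (2.08-fold scaled), although its second, dim probe set gave 0.04 after the floor was applied. Next came cct5 (3027 in M and 4075 in X, log2 ratio -0.43), cct4 (2610 in M and 3376 in X, -0.37), cct8 (1727 in M and 2105 in X, -0.29) and cct3 (1151 in M and 1278 in X, -0.15). The signals of cct7 (3796 in M and 3834 in X) and cct6a (4501 in M and 4479 in X) were almost the same on both arrays. The remaining ring subunit, tcp1, whose symbol falls outside the rule, gave 2849 in M and 2732 in X (0.06).

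The J-domain proteins had the highest median of any chaperone family (0.46 over 22 measured of 28 genes) and included all 4 of the constitutive chaperones that reached 2-fold. These 4 are 18.2% of the 22, near the 15.5% of all measured genes. The family as a whole lay near the all-gene median (0.36), with 12 of the 22 above it and 10 below. The signal of dnajb11, which hands clients to BiP, was 328 in M and 143 in X, 2.30-fold. That of dnajc1, an endoplasmic reticulum membrane protein, was 726 in M and 329 in X, 2.21-fold, and that of dnajc18 was 350.2 in M and 165 in X, 2.13-fold. For dnajb6a, which keeps aggregation-prone proteins soluble, the brighter probe set gave 1415 in M and 636 in X, 2.23-fold, but a second gave 109 in M and 103.5 in X, a log2 ratio of 0.07. None of these 4 reached 2-fold after scaling to the spike-ins, where they stood at 1.63-fold to 1.76-fold. The copy dnajb6b gave 232 in M and 276 in X (-0.25).

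Arranged by compartment, a grouping made after the values were seen, the J-domain proteins known in mammals from the endoplasmic reticulum lay highest. All 7 (dnajb11, dnajc1, dnajc18, dnajc3a, dnajc3b, dnajc10 and dnajb12a) were above the all-gene median, from 0.38 to 1.20 with a median of 0.83. Scaled to the spike-ins their median was 0.44, with dnajb12a at 0.00062, level on both arrays. That scaling subtracts 0.38, close to the all-gene median of 0.36, so the scaled values are no separate check. The copies dnajc3a (381 in M and 217 in X) and dnajc3b (156 in M and 88.0 in X), both like the BiP partner that restrains the kinase Perk in mammals, had log2 ratios of 0.82 and 0.83. The disulfide reductase dnajc10 gave 92.2 in M and 56.9 in X (0.70). The other 15 measured J-domain genes had a median of 0.19. Among them the mitochondrial dnajc11a gave 0.66 and the cysteine string protein relative dnajc5ga 0.81, while dnajc9, a histone co-chaperone, gave -0.39 and dnaja2b -0.35. The cytosolic dnaja1 and dnajb1a stood at 0.54 and 0.59. BiP itself (hspa5, above) lay below the all-gene median.

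**Figure D4:**
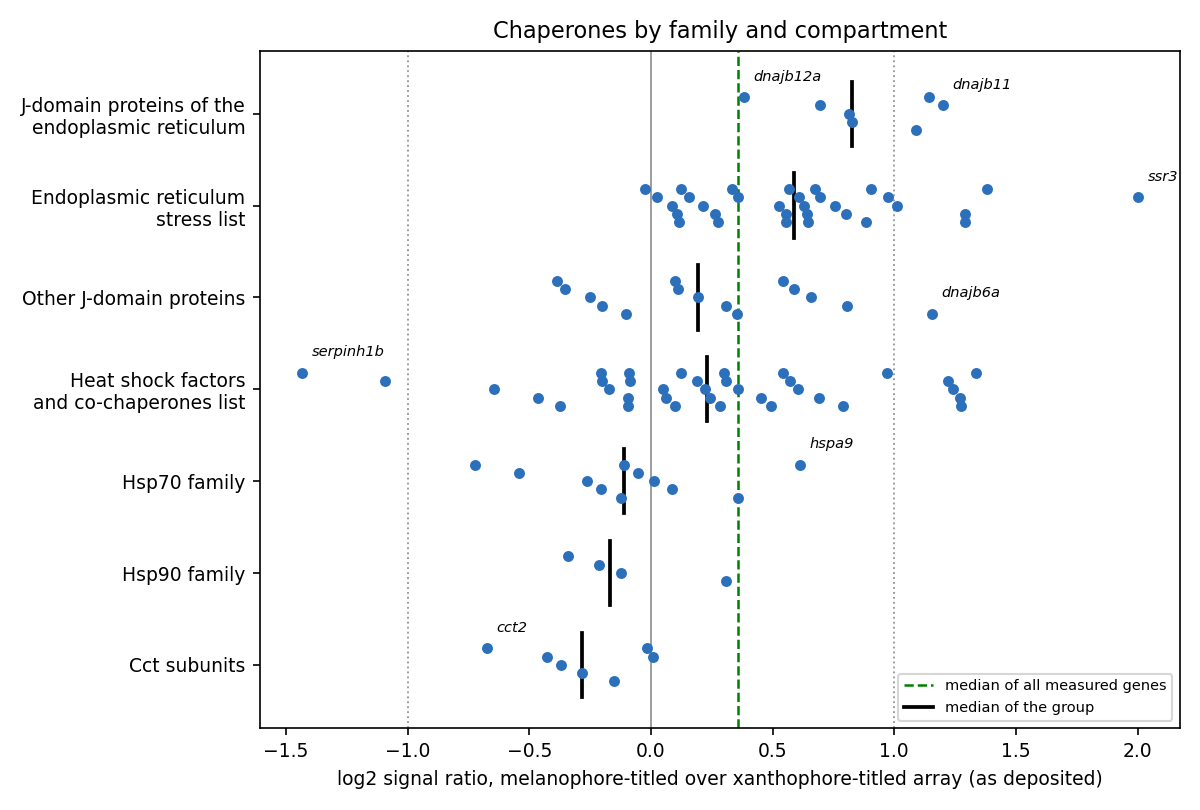
Points are measured genes placed by log2 signal ratio (melanophore-titled over xanthophore-titled array, as deposited), in rows by family or list, with row medians as black bars and the all-gene median dashed. Row medians run from 0.83 for the endoplasmic reticulum J-domain proteins down to -0.29 for the Cct subunits.

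Other genes of these pathways were taken from lists that do not include the members. Of the endoplasmic reticulum stress list 32 of 58 genes were measured, 5 passed 2-fold towards the melanophore title (15.6%, against 15.5% of all measured genes) and none towards the other. Of these 32 genes 21 lay above the all-gene median, and the list's median was 0.59. Many of the 32 had signals of 200 to 2000, a range where the median of all measured genes was 0.51. The list was not compared within signal ranges. Scaled to the spike-ins the median was 0.21, with 1 gene at 2-fold towards the melanophore title (3.12%, background 6.56%). The largest was ssr3, a subunit of the translocon-associated complex, at 1180 in M against 295 in X (4.00-fold), followed by the disulfide isomerase pdia6 (375 in M and 144 in X, 2.60-fold) and the degradation factors derl2 (326 in M and 133 in X, 2.45-fold) and derl1 (1488 in M and 608 in X, 2.45-fold). The stress regulators themselves were near equal: xbp1 gave 3174 in M and 2914 in X (0.12) and atf4a 3048 in M and 2868 in X (0.09).

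Of the heat shock factor and co-chaperone list 36 of 59 were measured, 5 at 2-fold on the melanophore-titled array (13.9%, background 15.5%) and 2 on the other (5.56%, background 4.09%), and the median was 0.23. Scaled to the spike-ins the counts were 0 (background 6.56%) and 3 (8.33%, background 8.21%), and the median was -0.15. The factors hsf1 (133 in M and 150 in X) and hsf2 (187 in M and 215.5 in X) had log2 ratios of -0.17 and -0.21. The Hsp90 partners ptges3a (2836 in M and 1124 in X, 2.52-fold) and ppid (143 in M and 59.4 in X, 2.41-fold) and the Hsf1-binding protein hsbp1b (209 in M and 86.6 in X, 2.42-fold) stood higher under the melanophore title, but none of these 3 reached 2-fold once scaled (1.85-fold to 1.94-fold). Another Hsp90 partner, ahsa1a, was 2.13-fold brighter the other way (54.8 in M and 117 in X). The collagen chaperone serpinh1b, at 1042 in M and 2819 in X, stood 2.70-fold higher under the xanthophore title, where the connective tissue markers were also brighter.

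The other immediate early genes had a median near 0, below the 0.36 of all measured genes. Only 16 of the 52 measured lay above that all-gene median. Of 81 listed 52 were measured, with 7 at 2-fold on the melanophore-titled array (13.5%, background 15.5%), 4 on the other (7.69%, background 4.09%), and a median of -0.0097. Scaled to the spike-ins, 4 genes (7.69%, background 6.56%) and 9 genes (17.3%, background 8.21%) were at 2-fold, and the median was -0.39. The balance thus turned round, as it did for all measured genes under this scaling. The cAMP-inducible repressor cremb gave 700.3 in M and 131 in X (5.33-fold), the G protein brake rgs2 gave 237 in M and 49.8 in X (4.76-fold), and the thioredoxin inhibitor txnipa 1365 in M and 441 in X (3.09-fold). In the other direction sat1b, a polyamine acetyltransferase gene, was at least 4.71-fold brighter (46.6 in M, which is under the floor, and 222 in X). The C/EBP genes cebpd (388 in M and 1094 in X, 2.82-fold) and cebpb (850.3 in M and 1822 in X, 2.14-fold), picked after their values were seen, were also brighter on the xanthophore-titled array. The early nuclear receptor nr4a1 gave 1049 in M and 1549 in X (-0.56), while its relative nr4a2b gave 2142 in M and 1794 in X (0.26), both also picked after their values were seen.

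The kinases and factors upstream of these genes had a median of 0.58 (0.20 scaled) over 20 measured of 56, with 5 at 2-fold towards the melanophore title (25%, background 15.5%) and none towards the other. The p38 kinase activator map2k6 was at least 3.53-fold brighter there (153 in M and 28.3 in X, which is under the floor), followed by crebbpb (2.35-fold), hrasb (2.20-fold) and ets2 (2.14-fold). After scaling to the spike-ins only map2k6 of these 20 stayed at 2-fold, at 2.71-fold or more (5%, background 6.56%).

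Among 12 pairs of zebrafish gene copies, 2 pairs differed in log2 ratio by over 2 technical SD of a difference (1.18): klf11a from klf11b by 1.60, and dnajb6a from dnajb6b by 1.40. For the second pair the value rests on the brighter dnajb6a probe set. Closest were junba with junbb and dnajc3a with dnajc3b, apart by 0.0084 and 0.0098.

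A few genes matched the symbol rule without belonging to the family it names. They were ier3ip1, an endoplasmic reticulum and Golgi protein, gadd45gip1, a mitochondrial ribosome component, hspbp1, an Hsp70 exchange factor, and dusp11, an RNA phosphatase. Each was counted in the role group of its prefix, so the Ier, Gadd45, small heat shock and Dusp medians include them. The signal of ier3ip1 was 189.8 in M and 92.7 in X, 2.05-fold (1.57-fold scaled). The others lay within 2-fold, with hspbp1 at 1781 in M and 1312 in X (0.44; second probe set -0.12). Remaining members not described above had log2 ratios between -0.20 and 0.35: dnajc21, dnaja3a, dnajc30b, dnajc19, dnajc7 and dnaja2a. The 13 members that were not measured were fosl1b, btg4, dusp23b, klf1, klf4, klf10, klf17, dnaja3b, dnajc4, dnajc5gb, dnajc12, dnajc17 and dnajc24.

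The sign of the class medians depended on how the arrays were set equal. With ribosomal protein genes set equal the medians were 0.23 for the dissociation-induced genes and 0.59 for the constitutive chaperones, both positive, and no member passed 2-fold towards the xanthophore title. No share of all measured genes is given for this scaling, so that count is not a result about the members. Under it egr1 stood at 1.44-fold, gadd45bb at 1.62-fold and hspb1 at 1.66-fold. Such a scaling shifts every ratio by the same amount, so it cannot move one class relative to the other.

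**Figure D5:**
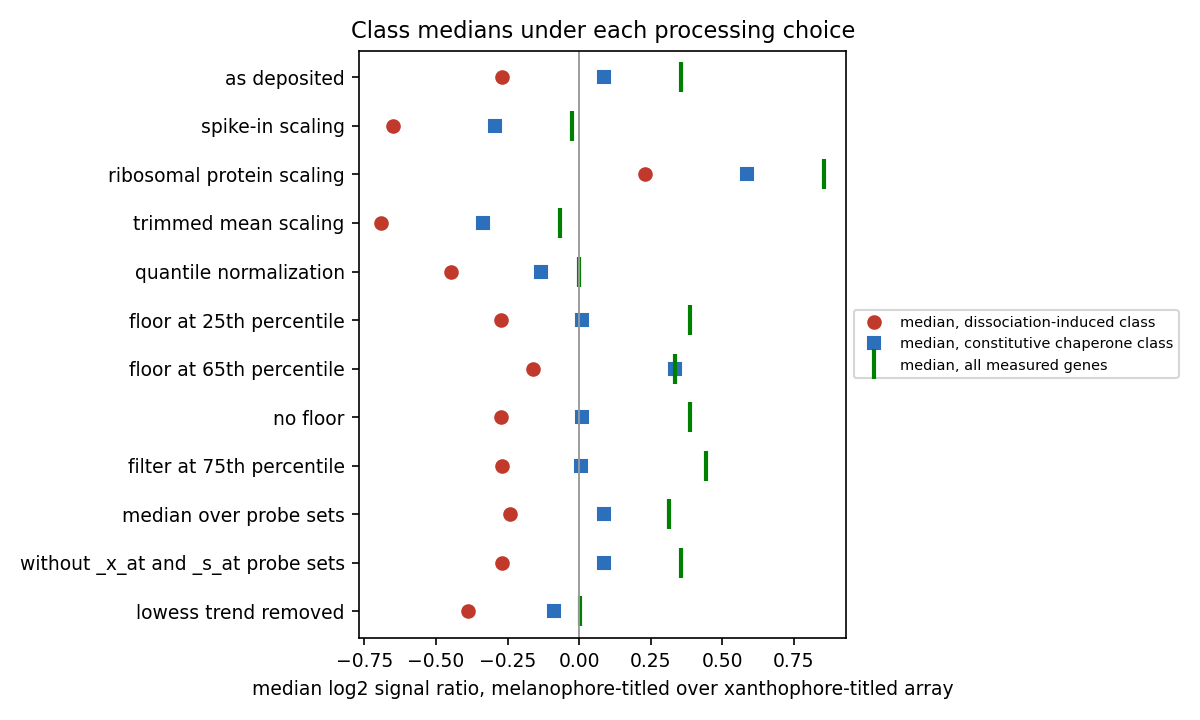
Rows are the processing choices and points are median log2 signal ratios (melanophore-titled over xanthophore-titled array) of the dissociation-induced class (red circles), the constitutive chaperone class (blue squares) and all measured genes (green bars). The red circle lies left of the blue square in every row, and both lie right of 0 under ribosomal protein scaling.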

How the data were processed

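Per the labels' protocols, an outside service labelled, hybridised and scanned the arrays and ran MAS 5.0, and the authors deposited its signal intensity on a linear scale, 1 value per probe set and array. For the scaling target, detection calls and probe sequences, the sources used here give nothing. Arrays were grouped by title, and their number, 1 per title, limits the precision. Of 15502 transcript probe sets, 10795 had 1 gene symbol in the platform annotation, 135 had several and 4572 are unnamed here. A gene took its probe set with the highest mean log2 signal. Ratios, medians and counts at 2-fold were computed in Python 3.11.15 with pandas 2.3.3 and numpy 2.4.6, and checked on simulated data. No test was possible.

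The members, classes and lists were chosen with earlier results of these data known. Described genes are those at 2-fold, the 6 largest ratios per role, textbook members, all cct genes, members whose probe sets differ by over 1 on the log2 scale, and up to 4 per other list. Further members are given so that all are accounted for, and other genes outside this rule (cebpb, cebpd, nr4a1, nr4a2b, ahsa1a, tcp1, xbp1, atf4a, hsf1, hsf2 and markers) were picked after their values were seen. The class of dissociation-induced genes leaves out ier3ip1 and gadd45gip1. With these 2 its median was -0.24. It also leaves out gadd45aa (log2 ratio 0.48), gadd45ab (-0.24) and some Klf, Dusp, Btg and small heat shock genes. No median with those is given. Alternatives were other scalings (spike-ins, 76 ribosomal protein probe sets, means trimmed at the 2nd and 98th percentiles, quantile), floors (25th or 65th percentile, none), a stricter filter (75th percentile), the median over probe sets, and leaving out cross-hybridising probe sets. Removal of a lowess trend with brightness (statsmodels 0.14.6) and the comparison within signal ranges were added after seeing the data.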

Additional observations from a re-analysis of the deposited data

How the results depend on the processing

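Scaling decided most counts. No share of all measured genes is given for trimmed means, quantile normalization or ribosomal protein scaling. Counts under those settings are thus not results about the members. Against 8 members at 2-fold under the melanophore title and 3 under the xanthophore title as deposited, there were 2 and 7 with spike-in scaling, 2 and 8 with trimmed means, 2 and 9 with quantile normalization or with the brightness trend removed, and 21 and 0 with ribosomal protein scaling. With ribosomal protein scaling the medians were 0.58 (members), 0.23 (dissociation-induced), 0.59 (constitutive chaperones), 0.18 (AP-1), -0.057 (Egr), 0.89 (Klf), 0.65 (Ier), 0.23 (Btg), 0.24 (Gadd45), 0.88 (Dusp), 0.81 (small heat shock), 0.39 (Hsp70), 0.33 (Hsp90), 0.96 (J-domain) and 0.21 (Cct). With trimmed means they were -0.35, -0.69, -0.33, -0.74, -0.98, -0.029, -0.27, -0.69, -0.68, -0.040, -0.11, -0.53, -0.59, 0.040 and -0.71 in the same order. These 2 scalings add a constant to every ratio, which by itself gives these shifts. Changing the floor, the filter, the probe set taken or the cross-hybridising probe sets moved neither of these 2 counts by over 1.5 times and no median by over the technical SD. With the floor at the 25th percentile or none, hspa12a joined the xanthophore-titled count (4 members, log2 ratio -1.69), the only constitutive chaperone in it. Of the members at 2-fold, klf7b (3.28-fold at its lowest, under the 65th percentile floor) and klf11a (3.33-fold) stayed at 2-fold under all alternatives. The ratio of dnajb6a was also under 2-fold when its probe sets were combined by their median (log2 ratio 0.61). Dim signals limit 9 measured members, which were under the floor on 1 array. No paired analysis was possible because each title has 1 array and no replicate number.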
